A study of Mus musculus with 18 samples.

Results

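The eicosanoid synthesis genes are 10 genes whose proteins turn arachidonic acid into leukotrienes, 15-lipoxygenase products, prostaglandins and thromboxane: Alox5, Alox5ap, Lta4h, Ltc4s, Alox15, Ptgs1, Ptgs2, Hpgds, Ptges and Tbxas1. They were chosen by gene symbol from a named pathway, with earlier results of these data known. They are 10 of the 24732 features in the expression tables. Counts of them beside shares of all features are therefore descriptions only. They were measured by polyA-selected RNA-seq in mouse macrophages of the C57BL/6 background, in 6 groups of 2 libraries, which the study calls biological replicates. DKO macrophages carried Bhlhe40-/-Bhlhe41-/- and WT macrophages Bhlhe40+/+Bhlhe41+/+. DKO cells thus lacked a pair of related basic helix-loop-helix transcription factors, and the labels name no cell type to which the deletion was limited. The groups were DKO and WT alveolar macrophages at steady state, DKO and WT alveolar macrophages taken from mixed bone marrow chimeras, and DKO and WT peritoneal macrophages. Alveolar macrophages were sorted ex vivo from digested lung as CD11c+ SiglecF+ CD11b low cells. In the chimeras DKO cells were in addition CD45.1- CD45.2+ and WT cells CD45.1+ CD45.2-. The genotypes there thus also differed in the Cd45 allele. Peritoneal macrophages were sorted from lavage as CD11b+ F4/80+ MHCII intermediate Tim4+ cells.

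Eicosanoids are short-lived lipid signals made on demand from arachidonic acid, which phospholipases free from membranes. In the 5-lipoxygenase route, Alox5 works with its membrane partner Alox5ap to make leukotriene A4, which Lta4h turns into the neutrophil attractant leukotriene B4 and Ltc4s into the first of the cysteinyl leukotrienes. Alox15 adds oxygen at another carbon and is known as a marker of resident peritoneal macrophages in the mouse. In the cyclooxygenase route, Ptgs1 or Ptgs2 makes prostaglandin H2, which Hpgds turns into prostaglandin D2, Ptges into prostaglandin E2 and Tbxas1 into thromboxane A2. Macrophages are among the main sources of these lipids in lung and peritoneum.

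The libraries held 6594712 reads (DKO chimera replicate 1) or between 16508468 and 29338242 reads (the other 11). Levels are given as TPM, a share of all transcripts that allows for transcript length. Bhlhe40 was at 65.68 to 242.7 TPM in the 6 DKO libraries and at 213.5 to 940.3 TPM in the 6 WT libraries, lower in both DKO libraries of each population. Bhlhe41 was higher in both DKO libraries of each population, at 155.8 and 155.4 TPM in DKO against 86.65 and 77.59 TPM in WT steady-state alveolar libraries. It was at 110.1 and 111.5 TPM in DKO against 100.3 and 88.62 TPM in WT chimera libraries, and at 75.42 and 83.22 TPM in DKO against 3.677 and 1.905 TPM in WT peritoneal libraries. A level over the whole transcript does not check a deletion of part of it. All 11 alveolar macrophage markers in the tables had reads in each alveolar group, and all 9 peritoneal macrophage markers in each peritoneal group. Among the peritoneal markers, Serpinb2 was at 99.66 and 89.91 TPM in DKO against 507.2 and 467.9 TPM in WT peritoneal libraries. There Gata6, Fn1 and Selp were also lower in DKO, Saa3, Cd93 and Rarb were higher, and Timd4 and Icam2 overlapped. In alveolar libraries the 9 peritoneal markers summed to 1630 to 1690 TPM in DKO against 559 to 576 TPM in WT chimera libraries. At steady state they summed to 1010 to 1160 TPM in DKO against 740 to 963 TPM in WT. Among the alveolar markers, Epcam was at 1.152 and 0.753 TPM in DKO against 112.9 and 122.0 TPM in WT steady-state libraries, and at 3.762 and 5.494 TPM in DKO against 118.5 and 75.12 TPM in WT chimera libraries. Krt19 was at 544.0 and 593.2 TPM in DKO against 1897 and 1739 TPM in WT steady-state libraries, and at 157.9 and 186.4 TPM in DKO against 1136 and 1102 TPM in WT chimera libraries. Marco and Itgax went the other way in both settings. Marco was at 3615 and 4218 TPM in DKO against 390.7 and 368.4 TPM in WT steady-state libraries. In chimera libraries Marco was at 166.0 and 150.8 TPM in DKO against 13.9 and 26.0 TPM in WT. The 11 alveolar markers summed to 22900 to 26800 TPM in DKO against 21800 to 23200 TPM in WT steady-state libraries. Their chimera sums were 14400 to 15000 TPM in DKO against 18800 to 19200 TPM in WT. Summed markers of mast cells and basophils reached at most 2.74 TPM and those of eosinophils at most 1.47 TPM in any library. The sum for platelets was 2.20 to 2.27 TPM in DKO against 3.53 to 5.80 TPM in WT steady-state alveolar libraries. Neutrophil markers summed to 81.0 to 105.0 TPM in DKO and 21.2 to 25.0 TPM in WT steady-state alveolar libraries. Within that list S100a8 was at 79.76 and 102.9 TPM in DKO against 19.9 and 17.41 TPM in WT, and Cxcr2 went the other way, at 0.8671 and 1.412 TPM in DKO against 4.886 and 3.341 TPM in WT. Camp was at 0 reads in both groups and S100a9 under 1 TPM. Epithelial and endothelial markers summed to 78.8 to 95.7 TPM in DKO against 191 to 225 TPM in WT chimera libraries. At steady state they summed to 188 to 201 TPM in DKO against 157 to 200 TPM in WT. There Sftpc was at 64.4 and 53.22 TPM in DKO against 32.93 and 40.58 TPM in WT. Scgb1a1 was at 106.3 and 108.9 TPM in DKO against 42.19 and 79.75 TPM in WT, and Sftpb was also higher in DKO. Cdh1 went the other way, at 12.41 and 11.96 TPM in DKO against 75.01 and 69.49 TPM in WT steady-state libraries. Dendritic cell markers summed to 1.67 to 4.93 TPM in DKO against 0.274 to 0.309 TPM in WT chimera libraries, and to 4.02 to 4.06 TPM in DKO against 15.2 to 16.0 TPM in WT peritoneal libraries. The peritoneal sum was mostly Cd209a, at 2.626 and 2.251 TPM in DKO against 14.54 and 14.12 TPM in WT. Zbtb46 went the other way there, at 1.391 and 1.632 TPM in DKO against 1.204 and 1.008 TPM in WT. Monocyte markers summed to 14.8 to 18.7 TPM in DKO against 1.62 to 5.09 TPM in WT peritoneal libraries, nearly all of it Plac8 in DKO. Ccr2 went the other way, at 0.6204 and 0.8245 TPM in DKO against 3.751 and 1.074 TPM in WT peritoneal libraries. The part of these markers in the results was not tested.

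Promoter sequences are shown for the 2 members that were far higher in DKO than in WT alveolar macrophages in both settings, Ptgs1 and Hpgds, and for Ptgs2, the 1 of 8 member promoters that holds CACGTG, the E-box hexamer that Bhlhe40 and Bhlhe41 are known to bind. Each is 250 bases before to 50 bases after a transcription start, 5′ to 3′ on the gene's strand, from RefSeq on GRCm38.p6, with CACGTG in capitals. Ptgs1 lies at chr2:36230176-36230475 (plus strand), Hpgds at chr6:65144681-65144980 (minus strand) and Ptgs2 at chr1:150099781-150100080 (plus strand).
Ptgs1: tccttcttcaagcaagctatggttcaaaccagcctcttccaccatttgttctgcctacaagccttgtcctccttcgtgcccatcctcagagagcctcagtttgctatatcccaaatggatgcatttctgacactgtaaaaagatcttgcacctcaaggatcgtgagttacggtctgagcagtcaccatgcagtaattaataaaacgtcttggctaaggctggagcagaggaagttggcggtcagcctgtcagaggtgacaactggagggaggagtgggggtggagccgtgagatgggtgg
Hpgds: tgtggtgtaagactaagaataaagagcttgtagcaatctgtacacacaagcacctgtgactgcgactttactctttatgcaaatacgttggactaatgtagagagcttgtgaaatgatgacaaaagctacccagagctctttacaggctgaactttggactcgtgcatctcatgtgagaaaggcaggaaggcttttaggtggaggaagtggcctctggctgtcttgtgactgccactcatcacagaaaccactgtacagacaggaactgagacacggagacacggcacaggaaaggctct
Ptgs2: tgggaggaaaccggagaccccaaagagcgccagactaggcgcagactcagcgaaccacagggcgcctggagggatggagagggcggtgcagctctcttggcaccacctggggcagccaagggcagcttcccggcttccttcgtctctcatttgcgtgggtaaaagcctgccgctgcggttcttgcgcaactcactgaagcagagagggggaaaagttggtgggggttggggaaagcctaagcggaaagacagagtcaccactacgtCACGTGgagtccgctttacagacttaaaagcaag
In the Ptgs2 window the hexamer starts at base 267 of the 300, past the start site. CACGTG reads the same on both strands, and 2349 of 32851 mouse promoters of this length (7.15%) hold it, as do 1143 of the 11470 promoters of tested genes (9.97%). Neither the Ptgs1 nor the Hpgds window holds these letters, and binding data were not used here.

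In steady-state alveolar macrophages, DKO cells had less RNA of the 5-lipoxygenase route and more of Ptgs1 and of the 3 enzymes that use its product. Of the 10 genes, 8 passed the test (limma on log2(TPM + 1) over 12303 features, Benjamini-Hochberg adjusted p under 0.05): Ptgs1, Hpgds, Ptges and Tbxas1 rose, and Alox5, Alox5ap, Lta4h and Ltc4s fell. Over all features tested, 51.5% passed, 12.2% upward and 39.4% downward. In 9 of the 10 genes the 2 DKO libraries did not overlap the 2 WT libraries, against 76.4% of all features. The 9 include Alox15, with 1 read in each DKO library and 0 reads in WT. The median log2 fold change was 0.24 over the 10 genes and -0.22 over all features tested, and scaling the libraries to each other by median ratios moved the median of all features to 0.00. The median of the 10 genes was 0.33 after that scaling. For a single gene, a log2 fold change as small as the -0.22 of all features is therefore within what the scaling moves. After rescaling 7 of the 10 genes passed, 4 upward and 3 downward. Of all features 38.4% then passed, 20.4% upward and 17.9% downward. In bulk libraries of sorted cells, fewer cells that make a transcript and less RNA per cell cannot be told apart.

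**Figure D1:**
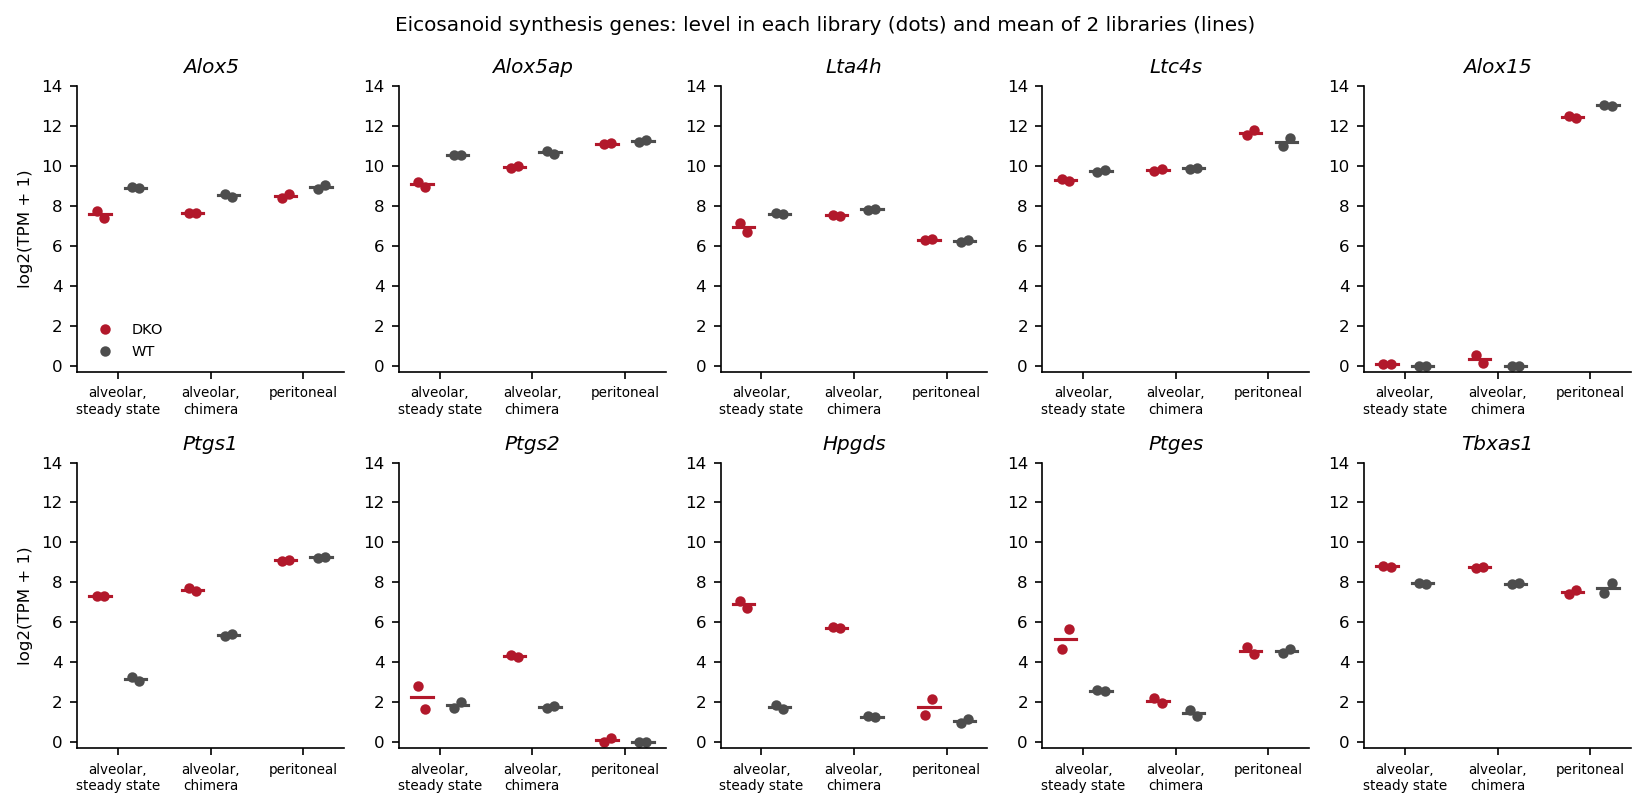
Level of each of the 10 genes in each library, as log2(TPM + 1) on the vertical axis, for DKO (red) and WT (grey) macrophages of the 3 populations; dots are libraries and lines the mean of 2. Hpgds and Ptgs1 stand high in DKO and low in WT alveolar libraries, while Alox15 is near 0 in all alveolar libraries and at 5452 TPM or more in all peritoneal ones.

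The 5-lipoxygenase itself was lower in DKO cells of all 3 populations. Alox5 stood at 211.0 and 170.0 TPM in DKO steady-state alveolar libraries, against 491.5 and 469.4 TPM in WT ones. It was at 199.8 and 201.0 TPM in DKO chimera libraries, against 387.5 and 351.6 TPM in WT chimera libraries. In the peritoneum it was at 340.8 and 379.6 TPM in DKO peritoneal libraries, against 467.3 and 524.2 TPM in WT peritoneal ones. Every DKO library was below both WT libraries of its population. The log2 fold change was -1.34 ± 0.11 (SE, adjusted p = 9.69e-06) at steady state, -0.88 ± 0.11 (adjusted p = 0.000297) in the chimeras and -0.46 ± 0.11 (adjusted p = 0.0126) in the peritoneum, by limma over all 12 libraries. The peritoneal call was lost without DKO replicate 1 (adjusted p = 0.0958) or WT replicate 2 (adjusted p = 0.108). The peritoneal effect was smaller than the steady-state alveolar one (log2 difference of effects 0.88 ± 0.15, adjusted p = 0.00232), while the chimera and steady-state effects differed by 0.46 ± 0.15 (adjusted p = 0.0501), or by 0.62 without DKO steady-state replicate 1 (adjusted p = 0.00781), 0.31 without DKO steady-state replicate 2 and 0.19 after rescaling (adjusted p = 0.366). Among its libraries, WT peritoneal (mean 495.8 TPM) and WT steady-state alveolar cells (480.5 TPM) overlapped at the top, and DKO chimera (200.4 TPM) and DKO steady-state cells (190.5 TPM) at the bottom.

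Alox5ap, the partner that presents arachidonic acid to Alox5, was the most abundant of the 10 genes in WT alveolar macrophages, while in DKO steady-state libraries Ltc4s stood above it. It was at 586.4 and 493.2 TPM in DKO steady-state alveolar libraries, against 1479 and 1503 TPM in WT ones. DKO chimera libraries had 966.5 and 1038 TPM, against 1718 and 1569 TPM in WT ones. In the peritoneum DKO libraries had 2193 and 2232 TPM, against 2359 and 2487 TPM in WT libraries. DKO and WT libraries did not overlap in any population, but only the alveolar differences passed the test. The log2 fold change was -1.47 ± 0.09 (adjusted p = 1.49e-06) at steady state, -0.71 ± 0.09 (adjusted p = 0.000364) in the chimeras and -0.13 ± 0.09 (adjusted p = 0.341) in the peritoneum. Both differences of effects passed, with 0.76 ± 0.13 between chimera and steady state (adjusted p = 0.00469) and 1.34 ± 0.13 between peritoneum and steady state (adjusted p = 6.17e-05), all by limma. Within each alveolar library Alox5ap and Alox5 kept a similar ratio between genotypes. Alox5ap TPM over Alox5 TPM was 2.78 and 2.90 in DKO against 3.01 and 3.20 in WT steady-state libraries. The chimera ratios were 4.84 and 5.17 in DKO against 4.43 and 4.46 in WT libraries.

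The enzymes that use leukotriene A4 had alveolar log2 fold changes nearer 0 than Alox5 and Alox5ap, a difference that was not tested. Lta4h, the hydrolase, was at 142.8 and 101.6 TPM in DKO and 196.1 and 194.8 TPM in WT steady-state alveolar libraries, a log2 fold change of -0.69 ± 0.12 (limma, adjusted p = 0.00143). The DKO pair was uneven, and leaving out 1 library at a time gave -0.94 to -0.45; fitted on its own 4 libraries the adjusted p was 0.0555. In the chimeras Lta4h had 187.0 and 181.5 TPM in DKO and 223.4 and 228.8 TPM in WT libraries, with no overlap but a log2 fold change of -0.29 ± 0.12 that did not pass (adjusted p = 0.11), though it did by limma-voom on recovered reads (-0.39, adjusted p = 0.0187). Its peritoneal level was lower than its alveolar level in each genotype, at 77.0 and 78.9 TPM in DKO and 72.9 and 77.9 TPM in WT libraries, and these overlapped.

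Ltc4s, the leukotriene C4 synthase, went in opposite directions in the tissues. It was at 654.9 and 597.7 TPM in DKO and 821.8 and 880.6 TPM in WT steady-state alveolar libraries (log2 fold change -0.44 ± 0.13, limma adjusted p = 0.0158). In peritoneal libraries it was at 2997 and 3515 TPM in DKO and 2039 and 2711 TPM in WT (0.47 ± 0.13, adjusted p = 0.0269), and the difference of these effects was 0.91 ± 0.18 (adjusted p = 0.00525). The alveolar call was lost after rescaling (-0.18, adjusted p = 0.291), without DKO replicate 2 (adjusted p = 0.0988) or without WT replicate 2 (adjusted p = 0.0951). The peritoneal call was lost without DKO replicate 2 (adjusted p = 0.169) or WT replicate 1 (adjusted p = 0.183). In the chimeras Ltc4s had 854.7 and 913.9 TPM in DKO and 927.6 and 968.5 TPM in WT libraries, which did not pass (-0.10 ± 0.13, adjusted p = 0.61). Ltc4s was above Lta4h in every library on the TPM scale, with a ratio of 4.15 to 5.88 across alveolar libraries, 38.9 and 44.5 in DKO peritoneal libraries and 28.0 and 34.8 in WT peritoneal libraries.

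Alox15, the 12/15-lipoxygenase, separated the tissues almost completely. It stood at 5701 and 5452 TPM in DKO and at 8435 and 8277 TPM in WT peritoneal libraries, the highest level of any of the 10 genes. In the alveolar libraries it had 1 read in each DKO steady-state library, 3 and 2 reads in the DKO chimera libraries and 0 reads in all 4 WT libraries. At 5 against 0 reads, the chimera difference did not pass (log2 fold change 0.33 ± 0.11, limma adjusted p = 0.0594) but did without DKO replicate 2 (0.52, adjusted p = 0.00237), and depth allows no firmer statement. Across the tissues it was 111000-fold lower in DKO steady-state alveolar than in DKO peritoneal macrophages by share of reads (2 against 286216 reads, 95% counting interval 30700 to 915000). It was at least 109000-fold lower in WT alveolar than in WT peritoneal macrophages (0 against 460772 reads, taking 3 reads over the group as the limit that a count of 0 allows). These intervals cover counting error only. No alveolar library held more than 3 reads of this RNA, which peritoneal macrophages made in quantity.

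Among peritoneal macrophages, Alox15 was lower in DKO cells than in WT cells. Its log2 fold change was -0.58 ± 0.11 (limma, adjusted p = 0.00592), a ratio of mean TPM of 0.667, and both DKO libraries lay below both WT libraries. The difference also passed on the peritoneal libraries alone, after rescaling (-0.44, adjusted p = 0.0245) and by limma-voom on recovered reads (adjusted p = 0.000104). The call was lost in 3 of its alternatives. With a pseudocount of 0.1 the value stayed at -0.58 while its SE rose to 0.36 (limma, adjusted p = 0.289). That SE is shared over all 6 groups, so it takes in alveolar libraries of 0 to 3 reads. It does not measure the spread of the peritoneal libraries alone. The other 2 were the fits without DKO replicate 2 (-0.55) and without WT replicate 2 (-0.6). With Alox5 (lower) and Ltc4s (higher), it made 3 of 10 genes that passed in the peritoneum, against 22.9% of all features. Of the 10, 7 did not overlap between genotypes, near the 66.8% of all features. The 7 include Ptgs2, with 1 and 7 reads in DKO and 0 reads in WT libraries. The 10 genes had a median peritoneal log2 fold change of -0.06, beside -0.09 over all features.

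**Figure D2:**
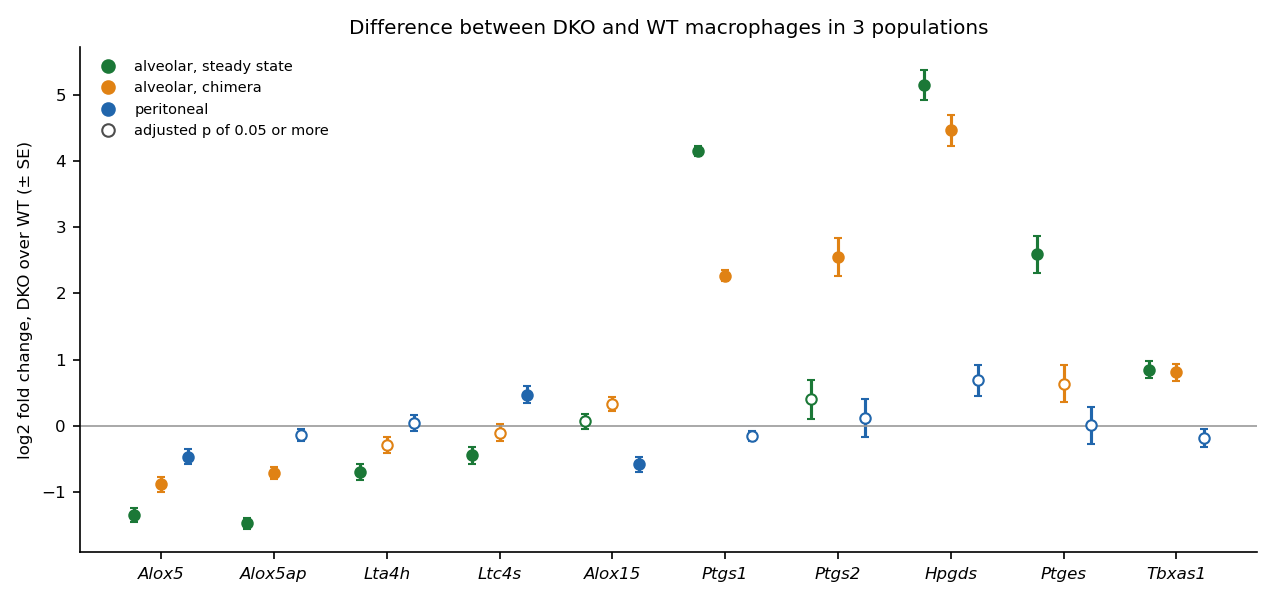
Log2 fold change of DKO over WT macrophages with its SE (vertical axis) for the 10 genes in steady-state alveolar (green), chimera alveolar (orange) and peritoneal (blue) macrophages; open circles did not pass an adjusted p of 0.05. The alveolar values of Ptgs1 and Hpgds lie between 2.27 and 5.14, while their peritoneal values, -0.15 and 0.69, did not pass.

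At the head of the prostaglandin route, Ptgs1, the cyclooxygenase that most cells make constantly, was strongly raised in DKO alveolar macrophages. It was at 157.4 and 161.5 TPM in DKO and 8.60 and 7.49 TPM in WT steady-state libraries, a 19.8-fold ratio of means. In the chimeras it was at 207.5 and 189.5 TPM in DKO and 38.54 and 42.39 TPM in WT libraries, a 4.90-fold ratio. The DKO levels of both settings lay far above all 4 WT alveolar libraries, and the smaller chimera ratio came with a higher WT level. The log2 fold change was 4.15 ± 0.08 (adjusted p = 9.49e-10) at steady state and 2.27 ± 0.08 (adjusted p = 1.12e-07) in the chimeras, a difference of -1.89 ± 0.11 (adjusted p = 3.09e-05) by limma. In peritoneal macrophages Ptgs1 was higher than in any alveolar group, at 540.6 and 555.2 TPM in DKO and 591.7 and 624.2 TPM in WT libraries, and the genotypes did not differ past the threshold (-0.15 ± 0.08, adjusted p = 0.221).

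WT alveolar macrophages of the chimeras thus held more Ptgs1 than WT alveolar macrophages at steady state, 5.03-fold by the ratio of means (log2 difference 2.20 ± 0.08, limma adjusted p = 9.05e-07). Of the other genes, Ptges was lower in WT chimera than in WT steady-state cells (-1.14 ± 0.28, adjusted p = 0.00987), and so was Alox5 (-0.38 ± 0.11, adjusted p = 0.0178). These 3 of 10 stand beside 41.0% of all features that passed in that comparison. Of the 3 calls, that of Ptgs1 held in every alternative tried. The Alox5 call was lost after rescaling (-0.15, adjusted p = 0.261), by limma-voom on recovered reads (-0.21, adjusted p = 0.101) and without WT steady-state replicate 1 (adjusted p = 0.0913), WT steady-state replicate 2 (adjusted p = 0.0626) or WT chimera replicate 2 (adjusted p = 0.107). The Ptges call was lost by limma-voom on recovered reads (adjusted p = 0.0931) and without WT steady-state replicate 1 (adjusted p = 0.052) or WT chimera replicate 2 (adjusted p = 0.062). Rescaling moved the median of all features here by 0.18 and added calls for Alox5ap (0.37, adjusted p = 0.00905), Lta4h (0.44, adjusted p = 0.00908) and Ltc4s (0.39, adjusted p = 0.0364), all higher in WT chimera cells. The WT chimera cells were in addition sorted as CD45.1+ CD45.2-, which cannot be told apart from the setting.

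Ptgs2, the inducible cyclooxygenase, was raised in DKO cells of the chimeras, where it was at 19.47 and 18.30 TPM in DKO and 2.30 and 2.48 TPM in WT libraries (7.91-fold, log2 fold change 2.55 ± 0.29, limma adjusted p = 0.0002). At steady state the DKO libraries disagreed: 6.05 and 2.22 TPM in DKO against 2.26 and 2.99 TPM in WT, with overlap and a log2 fold change of 0.40 ± 0.29 (adjusted p = 0.276). Without DKO replicate 2 the steady-state value was 0.97 and passed (adjusted p = 0.00281), and leaving out DKO replicate 1 turned it to -0.17. The chimera effect exceeded the steady-state one by 2.15 ± 0.41 (adjusted p = 0.00836). Peritoneal macrophages had hardly any, with 1 and 7 reads in DKO and 0 reads in both WT libraries. Ptgs1 exceeded Ptgs2 in every library in TPM, with a ratio of 26.0 and 72.8 in DKO against 3.80 and 2.50 in WT steady-state alveolar libraries, and 10.7 and 10.4 in DKO against 16.7 and 17.1 in WT chimera libraries.

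Hpgds, the hematopoietic prostaglandin D synthase, had the highest ratio between DKO and WT macrophages in both alveolar settings among genes with reads in both genotypes. It was at 135.5 and 105.0 TPM in DKO and 2.62 and 2.20 TPM in WT steady-state libraries (49.9-fold, log2 fold change 5.14 ± 0.23, limma adjusted p = 1.67e-07). In the chimeras it was at 53.0 and 52.2 TPM in DKO and 1.47 and 1.41 TPM in WT libraries (36.5-fold, 4.46 ± 0.23, adjusted p = 1.07e-06). The difference between these effects did not pass (-0.69 ± 0.32, adjusted p = 0.141). Hpgds is also a known product of mast cells, and the summed mast cell and basophil markers were 0.267 to 0.534 TPM in DKO and 0.234 to 0.485 TPM in WT steady-state libraries, with 5 of 9 markers at 0 reads in each group. In the chimera libraries they summed to 0.647 to 1.27 TPM in DKO and 0.182 to 0.541 TPM in WT, without overlap, with 7 of the 9 markers at 0 reads in DKO and 6 in WT. The DKO chimera sum was nearly all Kit, at 1.156 and 0.6119 TPM in DKO against 0.101 and 0.1021 TPM in WT. Gata2 overlapped, at 0.1087 and 0.03492 TPM in DKO against 0.08066 and 0.2935 TPM in WT. Cpa3, Mcpt8, Ms4a2, Tpsb2 and Cma1 had no reads in the DKO chimera libraries. The part of these markers in the Hpgds difference was not tested. In peritoneal macrophages Hpgds had 1.55 and 3.47 TPM in DKO and 0.955 and 1.23 TPM in WT libraries, which did not pass (0.69 ± 0.23, adjusted p = 0.0539). That value passed without DKO replicate 1 (1.10, adjusted p = 0.00616) and after rescaling (0.79, adjusted p = 0.0303), and lay at 0.29 without DKO replicate 2. The peritoneal effect was smaller than the steady-state alveolar one by 4.45 (log2 -4.45 ± 0.32, adjusted p = 1.15e-05).

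Ptges, the inducible prostaglandin E synthase, rose in DKO cells at steady state, though its DKO libraries were uneven. It was at 24.49 and 50.54 TPM in DKO and 5.18 and 4.85 TPM in WT libraries, 7.48-fold by the ratio of means (log2 fold change 2.59 ± 0.28, limma adjusted p = 7.15e-05); leaving out 1 library at a time gave 2.08 to 3.10. In the chimeras both genotypes had little, 3.67 and 2.89 TPM in DKO and 2.04 and 1.45 TPM in WT libraries, and the difference did not pass (0.64 ± 0.28, adjusted p = 0.121). The chimera effect was smaller than the steady-state one (-1.95 ± 0.40, adjusted p = 0.0104), a difference that limma-voom on recovered reads did not call (adjusted p = 0.0886). Peritoneal libraries overlapped, at 26.40 and 20.05 TPM in DKO and 21.16 and 24.83 TPM in WT.

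Tbxas1, the thromboxane synthase, rose evenly in both alveolar settings. It was at 449.6 and 439.9 TPM in DKO and 253.0 and 241.1 TPM in WT steady-state libraries (1.80-fold, log2 fold change 0.85 ± 0.13, limma adjusted p = 0.000624). In the chimeras it was at 424.6 and 435.0 TPM in DKO and 239.0 and 250.4 TPM in WT chimera libraries (1.76-fold, 0.81 ± 0.13, adjusted p = 0.00159). The effects differed by -0.04 ± 0.18 (adjusted p = 0.908). In peritoneal macrophages DKO libraries had 171.7 and 198.0 TPM and WT libraries 176.6 and 246.7 TPM, which overlapped. The log2 fold change of -0.18 ± 0.13 did not pass (adjusted p = 0.379) but was -0.42 without WT replicate 1 (adjusted p = 0.0221) and 0.06 without WT replicate 2. In the chimeras as a whole 6 of the 10 genes passed, with Tbxas1, Ptgs1, Ptgs2 and Hpgds higher and Alox5 and Alox5ap lower, against 27.3% of all features (13.7% higher, 13.6% lower). All 10 genes there were free of overlap between genotypes, against 62.4% of features, and their median log2 fold change was 0.48, beside 0.01 over all features. The 10 include Alox15, with 3 and 2 reads in DKO and 0 reads in WT chimera libraries.

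Summed by route, the balance between the arms differed between genotypes in the alveolar libraries. The 4 genes of the 5-lipoxygenase route summed to 1595 and 1362 TPM in DKO against 2988 and 3048 TPM in WT steady-state libraries. In the chimeras they summed to 2208 and 2334 TPM in DKO against 3257 and 3118 TPM in WT chimera libraries. The 5 genes of the cyclooxygenase route summed to 773.1 and 759.2 TPM in DKO against 271.7 and 258.6 TPM in WT steady-state libraries. In the chimeras these summed to 708.2 and 697.8 TPM in DKO against 283.3 and 298.1 TPM in WT chimera libraries. Each sum separated the genotypes without overlap in both alveolar settings, in opposite directions, and Tbxas1 and Ptgs1 made up most of the second. In peritoneal libraries the sums were 5607 and 6206 TPM in DKO against 4938 and 5800 TPM in WT for the first route. For the second they were 740.3 and 776.9 TPM in DKO against 790.4 and 896.9 TPM in WT. The DKO alveolar sums of these 5 genes thus lay between 697.8 and 773.1 TPM, beside 740.3 to 896.9 TPM in the peritoneal libraries of both genotypes. That closeness depends on the genes summed, since Ptgis, another synthase of the pathway, is not among them. Ptgis was at 619.3 and 512.8 TPM in DKO and 847.5 and 1056 TPM in WT peritoneal libraries. In alveolar libraries it reached at most 0.6038 TPM. Ptgis was chosen for mention after its values were seen. Among the enzymes that compete for prostaglandin H2, Hpgds over Tbxas1 was 0.301 and 0.239 in DKO against 0.0104 and 0.00911 in WT steady-state libraries. The chimera ratios were 0.125 and 0.120 in DKO against 0.00614 and 0.00564 in WT chimera libraries.

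**Figure D3:**
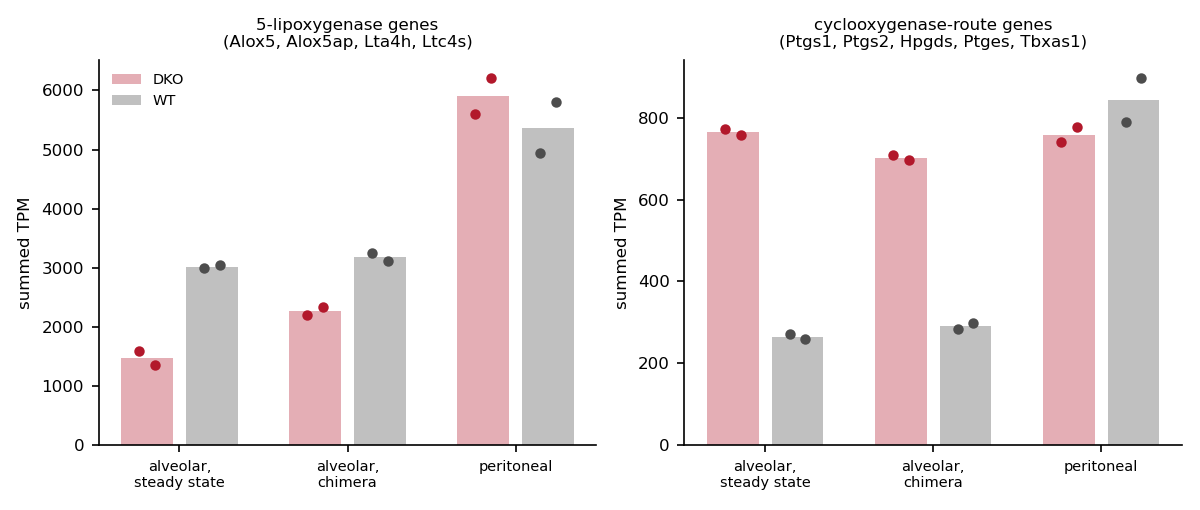
Summed TPM of the 4 genes of the 5-lipoxygenase route (left) and the 5 genes of the cyclooxygenase route (right) in DKO (red) and WT (grey) macrophages of each population; bars are means of 2 libraries and dots the libraries. In both alveolar settings the left sum is lower and the right sum higher in DKO than in WT libraries.

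Between the tissues, WT steady-state alveolar and WT peritoneal macrophages differed in 8 of the 10 genes, where 68.0% of all features passed. Lta4h (log2 difference 1.36 ± 0.12, limma adjusted p = 4.11e-06), Ptgs2 and Hpgds (0.71 ± 0.23, adjusted p = 0.0187) were higher in WT alveolar cells. Alox15, Ptgs1 (-6.08 ± 0.08, adjusted p = 3.16e-12), Ptges (-1.99 ± 0.28, adjusted p = 0.000112), Ltc4s (-1.47 ± 0.13, adjusted p = 2.95e-06) and Alox5ap (-0.70 ± 0.09, adjusted p = 5.4e-05) were lower. Ptgs2 had 166 reads in WT alveolar and 0 reads in WT peritoneal libraries, at least 78.2-fold higher by share of reads, taking the same limit of 3 reads over the group. Ptgs1 was 75.6-fold lower in WT steady-state alveolar than in WT peritoneal macrophages by the ratio of means. The Hpgds difference was lost without WT alveolar replicate 1 (adjusted p = 0.0985) or WT peritoneal replicate 1 (adjusted p = 0.101). That of Tbxas1, which did not pass (0.24 ± 0.13, adjusted p = 0.125), passed without WT peritoneal replicate 2 (0.48, adjusted p = 0.00206), and was 0.00 without WT peritoneal replicate 1 and 0.06 after rescaling (adjusted p = 0.721). Alox5 did not pass either (-0.04 ± 0.11, adjusted p = 0.736).

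The same tissue comparison within DKO cells passed for 9 of the 10 genes, where 65.1% of all features did. Ptgs1 was 3.44-fold lower in DKO alveolar than in DKO peritoneal macrophages (-1.77 ± 0.08, limma adjusted p = 1.89e-08). Hpgds was 47.9-fold higher in DKO alveolar cells (5.16 ± 0.23, adjusted p = 1.55e-08) and Tbxas1 2.41-fold higher (1.27 ± 0.13, adjusted p = 1.16e-05). Ptgs2 was also higher (2.13 ± 0.29, adjusted p = 9.51e-05), as was Lta4h (0.62 ± 0.12, adjusted p = 0.00136). Alox5 (-0.92 ± 0.11, adjusted p = 2.69e-05), Alox5ap (-2.04 ± 0.09, adjusted p = 1.46e-08), Ltc4s (-2.37 ± 0.13, adjusted p = 7.24e-08) and Alox15 were lower in DKO alveolar cells. Ptges, 0.59 ± 0.28 higher (adjusted p = 0.0872), did not pass with both libraries and passed without DKO alveolar replicate 1 (1.10, adjusted p = 0.00149), while it was 0.09 without DKO alveolar replicate 2. The difference between the tissue effects of the genotypes is the same quantity as the difference between the genotype effects of the tissues. It passed for 9 of 10 genes, against 28.3% of all features. The 9 include Alox15, which had at most 1 read in each steady-state alveolar library. Its value therefore mainly restates its peritoneal log2 fold change of -0.58. Ptgs2 did not (-0.28 ± 0.41, adjusted p = 0.65), but passed without DKO steady-state replicate 2 (-0.84, adjusted p = 0.025), and was 0.29 without DKO steady-state replicate 1. Of the 9 that passed, the Alox15 value (limma, -0.66 ± 0.16, adjusted p = 0.0141) was lost with a pseudocount of 0.1 (adjusted p = 0.112). It was also lost by limma-voom on recovered reads (-2.14, adjusted p = 0.104). The same held without DKO peritoneal replicate 2 (-0.62), WT peritoneal replicate 1 (-0.64) or WT peritoneal replicate 2 (-0.67). Between chimera and steady state 4 of 10 genotype effects differed (Alox5ap, Ptgs1, Ptgs2 and Ptges), against 24.4% of all features.

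**Figure D4:**
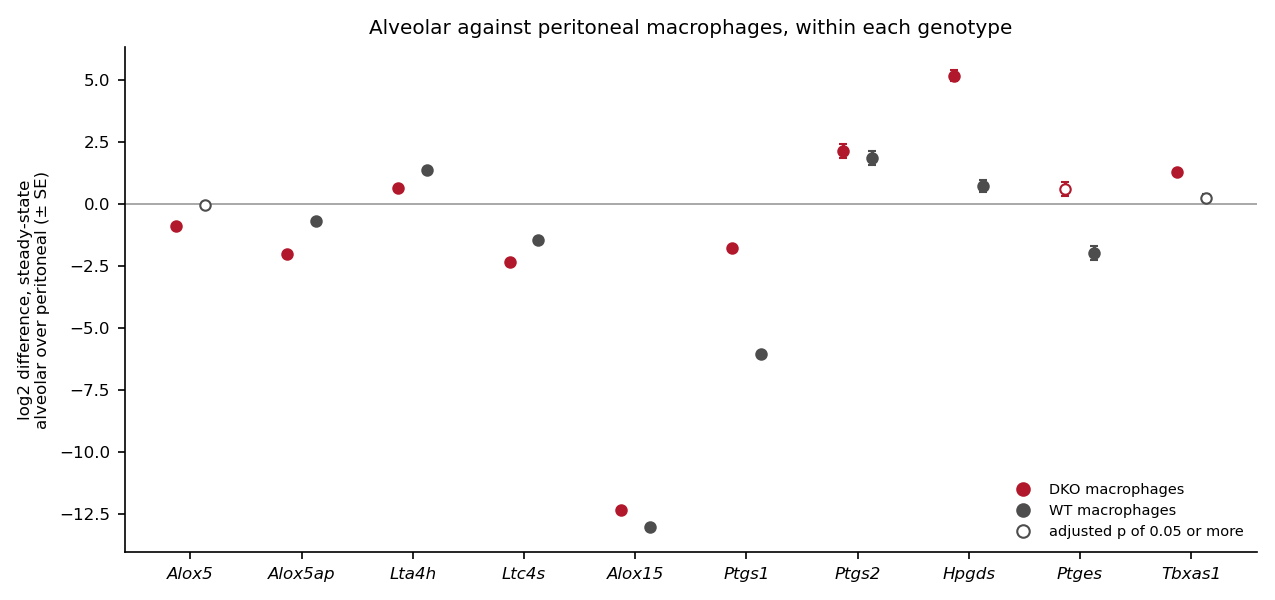
Log2 difference of steady-state alveolar over peritoneal macrophages with its SE (vertical axis) for the 10 genes, in DKO (red) and WT (grey) cells; open circles did not pass an adjusted p of 0.05. Ptgs1 lies at -1.77 in DKO and -6.08 in WT, and Hpgds at 5.16 in DKO and 0.71 in WT.

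The other genes of the pathway were followed as a list of 70 symbols in 4 roles, of which 68 were in the tables and 48 passed the filter on low values. At steady state 17 of the 48 rose and 9 fell in DKO cells, in the chimeras 12 rose and 13 fell, and in the peritoneum 3 rose and 9 fell. Over all features the shares were 12.2% and 39.4%, 13.7% and 13.6%, and 6.80% and 16.1%. Their median log2 fold change was 0.15, 0.17 and -0.05, beside -0.22, 0.01 and -0.09 over all features in the same order of populations. After rescaling the steady-state counts were 26 higher and 7 lower, and the peritoneal ones 6 higher and 5 lower, beside 11.9% and 7.87% of all features in the peritoneum.

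Upstream, among 15 genes that free arachidonic acid or put it back into lipids, 7 rose and 1 fell at steady state, 4 rose and 2 fell in the chimeras, and 1 rose and 5 fell in the peritoneum. Pla2g4a, the cytosolic phospholipase A2 that supplies most arachidonic acid, was at 44.41 and 41.82 TPM in DKO and 43.38 and 42.23 TPM in WT steady-state libraries. It fell in DKO peritoneal cells (16.10 and 17.94 TPM in DKO, 26.20 and 23.13 TPM in WT, log2 fold change -0.51 ± 0.09, limma adjusted p = 0.00274) and was chosen for mention after its values were seen. Daglb, a diacylglycerol lipase, rose at steady state (193.2 and 200.4 TPM in DKO, 86.80 and 91.63 TPM in WT, 1.13 ± 0.09, adjusted p = 1.12e-05). Pla2g7, which degrades platelet-activating factor, also rose there (9.51 and 26.68 TPM in DKO, 4.07 and 4.73 TPM in WT, 1.66 ± 0.38, adjusted p = 0.00547), with an uneven DKO pair and a feature name that carries a mark whose meaning is not given in the sources used here. Lpcat2, which remakes membrane lipid in inflamed macrophages, rose at steady state (0.96 ± 0.20, adjusted p = 0.0033) and fell in the chimeras (-1.05 ± 0.20, adjusted p = 0.00419). Pla2g2d, a secreted phospholipase, fell in the chimeras (0.467 and 1.35 TPM in DKO, 4.85 and 4.72 TPM in WT, -1.64 ± 0.23, adjusted p = 0.00063).

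Of 10 other synthases, 3 rose and 1 fell at steady state, 2 rose and 5 fell in the chimeras, and none rose and 3 fell in the peritoneum. Fam213b, a prostamide and prostaglandin F synthase, rose in both alveolar settings (10.92 and 15.51 TPM in DKO, 2.48 and 2.66 TPM in WT at steady state, log2 fold change 1.97 ± 0.31, limma adjusted p = 0.000739). In the chimeras the change was 1.49 ± 0.31 (adjusted p = 0.00671). Ptges3, a co-chaperone with prostaglandin E synthase activity, fell at steady state (-0.75 ± 0.08, adjusted p = 6.87e-05) and in the chimeras (-0.41 ± 0.08, adjusted p = 0.00471), opposite in sign to Ptges. Ptges3 was chosen for mention after its values were seen.

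Among 15 genes of breakdown and export, 4 rose and 5 fell at steady state, 3 rose and 6 fell in the chimeras, and 2 rose and 1 fell in the peritoneum. Cyp4f18, a hydroxylase that inactivates leukotriene B4 in mouse neutrophils, fell in all 3 populations. It was at 43.72 and 34.44 TPM in DKO and 174.5 and 175.7 TPM in WT steady-state libraries (log2 fold change -2.15 ± 0.21, limma adjusted p = 3.88e-05). The change was -1.04 ± 0.21 in the chimeras (adjusted p = 0.00576) and -2.01 ± 0.21 in the peritoneum (adjusted p = 0.000255). The peritoneal level was low, at 0.3815 and 1.346 TPM in DKO against 5.597 and 6.97 TPM in WT libraries. Cyp4f16 fell as well at steady state (-1.07 ± 0.09, adjusted p = 1.31e-05) and in the chimeras (-0.58 ± 0.09, adjusted p = 0.00117). Ephx1, an epoxide hydrolase, rose in all 3 populations, at 94.69 and 91.20 TPM in DKO and 23.42 and 24.26 TPM in WT steady-state libraries (1.92 ± 0.14, adjusted p = 4.94e-06). The change was 0.84 ± 0.14 in the chimeras (adjusted p = 0.00173) and 1.11 ± 0.14 in the peritoneum (adjusted p = 0.000617). Hpgd, the dehydrogenase that begins prostaglandin breakdown, fell at steady state on a low level (1.15 and 0.833 TPM in DKO, 3.62 and 5.02 TPM in WT, -1.41 ± 0.31, adjusted p = 0.00422). So did Dpep3, of the dipeptidase family whose members trim cysteinyl leukotrienes (-1.07 ± 0.24, adjusted p = 0.00471).

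Of 8 receptors tested, 3 rose and 2 fell at steady state, 3 rose and none fell in the chimeras, and none passed in the peritoneum. Ptgir, the prostacyclin receptor, was at 50.77 and 77.84 TPM in DKO and 12.39 and 11.28 TPM in WT steady-state libraries (log2 fold change 2.32 ± 0.17, limma adjusted p = 6.24e-06). In the chimeras it was at 80.76 and 71.56 TPM in DKO and 43.90 and 51.13 TPM in WT libraries (0.67 ± 0.17, adjusted p = 0.0169). Its WT libraries, like those of Ptgs1, were higher in the chimeras than at steady state, without overlap. Ptger4, a prostaglandin E2 receptor that raises cyclic AMP, fell at steady state with an uneven DKO pair (61.58 and 27.88 TPM in DKO, 76.60 and 92.05 TPM in WT, adjusted p = 0.0163). After rescaling no receptor fell at steady state, and 5 rose.

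**Figure D5:**
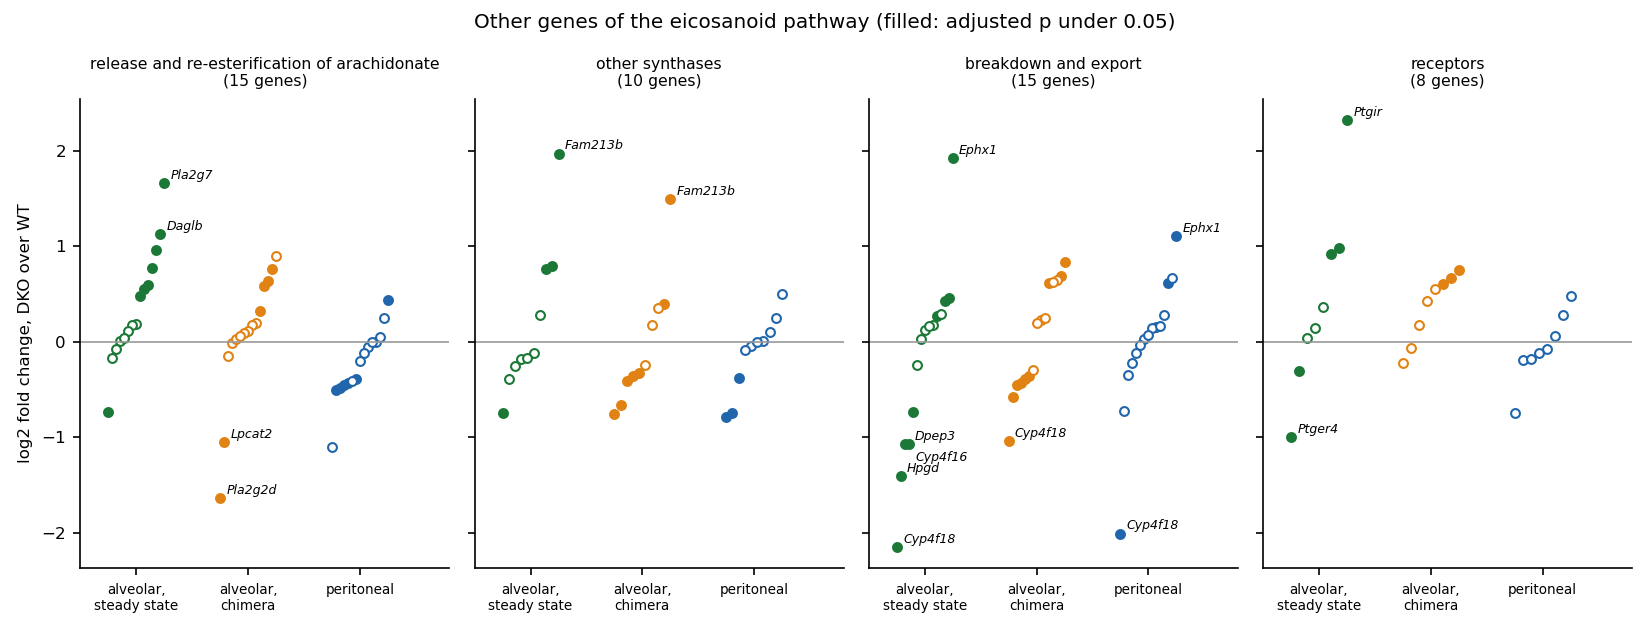
Log2 fold change of DKO over WT macrophages (vertical axis) for the 48 other pathway genes tested, by role and population; each circle is a gene, filled where the adjusted p is under 0.05, and filled genes with a log2 fold change of 1 or more in size are named. Ptgir, Fam213b and Ephx1 lie highest and Cyp4f18 lowest at steady state.

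Beside these fits, the authors' deposited table gave the same signs for every alveolar value that passed here, with log2 fold changes at steady state of 5.68 for Hpgds, 4.49 for Ptgs1, 2.75 for Ptges, 1.10 for Tbxas1, -1.07 for Alox5, -1.20 for Alox5ap, -0.42 for Lta4h and -0.18 for Ltc4s. In the chimeras the authors' deposited table gave 2.25 for Ptgs1, 2.87 for Ptgs2, 0.79 for Tbxas1, -0.90 for Alox5 and -0.73 for Alox5ap. For peritoneal Hpgds, just short of the threshold here, the authors' deposited table gave 0.89 with an adjusted p of 0.0298, and for chimera Lta4h -0.32 with 8.48e-05.

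The 10 genes did not share one profile over the 12 libraries. By Pearson correlation of log2(TPM + 1) over all 12 libraries, which describes these libraries only, the tested feature most like Ptgs1 was Msr1 (0.992), that most like Hpgds was Cdc42se2 (0.991), and that most like Tbxas1 was Hgf (0.969). For Alox5 it was Fgfr1op2 (0.968), for Alox5ap Cd244 (0.992), for Lta4h Rabgef1 (0.995) and for Ltc4s Sp100 (0.990). For Alox15 it was Ltbp1 (1.00), for Ptgs2 Hid1 (0.974) and for Ptges 5031439G07Rik (0.965). None of the 10 was the closest feature of another. Alox5, Hpgds and Tbxas1 lie on chromosome 6, as do Bhlhe40 and Bhlhe41. They are separated from Bhlhe40 by 43, 162 and 254 tested genes. From Bhlhe41 they are separated by 160, 365 and 457 tested genes, in the same order. Alox5 fell and the other two rose in DKO alveolar cells; the part of nearby DNA of the knockout line in these 3 differences was not tested.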

How the data were processed

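RNA was measured in 12 macrophage libraries; 6 ChIP samples of the series were not analysed here. The authors deposited TPM per library and, per population, mean normalized counts over the 4 libraries (treated here as a signal), log2 fold changes and adjusted p-values, per the file headers. Per the submitters' processing notes, DESeq2 1.2.10 and HTSeq 0.5.3 were used besides the aligners TopHat 1.4.1, Bowtie2 and Bowtie 1.0.0, and GRCm38.p3 is listed as a build beside mm9; which served the RNA libraries is not given in the sources used here, so no coordinates on the files' build are given; the promoters carry RefSeq's own GRCm38.p6 coordinates. Strand is not stated.

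Features that reached 1 TPM in 2 or more libraries were tested with limma 3.58.1 (R 4.3.3; trend, two-sided) on log2(TPM + 1), all 12 libraries in 1 fit of 6 group means with 6 residual degrees of freedom, adjusted by Benjamini-Hochberg over 12303 features. Fold changes on this scale understate those of low genes. All 10 genes passed the filter, Alox15 only through its peritoneal libraries. Whole reads were recovered from the TPM and the authors' means (100.0% of values within 0.01 of a whole number) for depth and for limma-voom as an alternative. The script was tested on simulated data.

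The genes and lists were chosen with earlier results of these data known. Of the other pathway genes, those that passed in at least 1 DKO over WT comparison with a log2 fold change of at least 1 in size are named, and for each member the closest feature by correlation. Replicate numbers came from the sample titles; the labels do not say that a number marks a shared animal or day, in the chimeras included.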

Additional observations from a re-analysis of the deposited data

Results flagged for a closer look

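The tests of differences between genotype effects (limma, Benjamini-Hochberg over all features) picked out 13 results. Between chimera and steady-state alveolar macrophages, the log2 DKO over WT effect differed by 2.15 for Ptgs2, where the rise passed in the chimeras and not at steady state, and by 0.76 for Alox5ap, whose fall was smaller in the chimeras. It differed by -1.89 for Ptgs1, which rose in both, and by -1.95 for Ptges, whose rise passed at steady state and not in the chimeras.

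Between peritoneal and steady-state alveolar macrophages, the effect on the log2 scale differed by 0.88 for Alox5, 1.34 for Alox5ap, 0.74 for Lta4h and 0.91 for Ltc4s. It differed by -4.30 for Ptgs1, -4.45 for Hpgds, -2.59 for Ptges and -1.02 for Tbxas1, each higher in DKO than in WT cells in the alveolar population and past the threshold there but not in the peritoneum. For Alox15, with at most 1 read in each steady-state alveolar library, the value of -0.66 mainly restates its peritoneal change of -0.58. These 2 sets of tests share the steady-state libraries.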

How the results depend on the processing

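Each gene was refitted in each comparison under 8 alternatives and without each library. Of these values 982 kept their side of the threshold, 28 newly passed and 30 no longer passed. No called value changed sign. Some values that passed in neither fit did, such as peritoneal Alox5ap (-0.13, and 0.01 after rescaling). Without an intensity trend every call was kept. Leaving out 1 library at a time gave 7 to 8 genes called at steady state (8 with all libraries), 6 to 7 in the chimeras (6), 1 to 3 in the peritoneum (3), 7 to 9 between WT tissues (8), 9 to 10 between DKO tissues (9), 1 to 3 between WT chimera and WT steady state (3), 4 to 6 for chimera minus steady-state effects (4) and 8 to 10 for peritoneal minus steady-state effects (9). Fitted on their own libraries only, 1 gene passed in the peritoneum and 5 between WT chimera and WT steady state. Rescaled by the median of ratios, 5 passed in the last comparison. Among other pathway genes, rescaling gave, at steady state, 8 of breakdown and export higher (4 as deposited), 5 receptors higher (3) and 0 lower (2), and 26 of all roles higher (17). In the peritoneum it gave 2 release genes higher (1) and 2 lower (5), 4 of breakdown and export higher (2), and 6 of all roles higher (3) and 5 lower (9). The cause of these shifts was not tested beyond the scaling itself.

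The libraries were not treated as paired, since the labels do not say whether replicate numbers pair them: the replicate 1 minus 2 differences of DKO and WT correlated at -0.043 at steady state, 0.126 in the chimeras and -0.063 in the peritoneum. With the replicate block 2 values newly passed, peritoneal Hpgds (0.69, adjusted p = 0.0271 by limma) and the chimera minus steady-state effect of Alox5 (0.46, adjusted p = 0.0347), and no other call changed. With 2 libraries a group the spread rests on 6 residual degrees of freedom, and levels of a few reads set how finely Alox15 and peritoneal Ptgs2 can be read. The spread is shared by all groups, while the DKO steady-state pair differed most in its reads. Its chi-square per degree of freedom was 31.51, beside 5.47 to 12.72 in the other pairs. By correlation of log2(TPM + 1) it stood at 0.9893, beside 0.9882 to 0.9948.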
